A study of Homo sapiens with 9 samples.

Results

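The insulin-like growth factor (IGF) binding proteins, the IGF receptors and the insulin receptor substrate adaptors were examined in PC3 cells. This human cell line was derived from a bone metastasis of prostate cancer. The set held 10 genes, IGFBP2, IGFBP3, IGFBP4, IGFBP5, IGFBP6, IGFBP7, IGF1R, IGF2R, IRS1 and IRS2, and was selected by gene symbol after the higher values of IGFBP5 in co-culture against untreated PC3 cells were known. All probe sets annotated to these symbols were taken, which gave 27 of the 54675 on the array, and 23 of them passed the filter on low values that 33970 probe sets passed. The 4 others belong to IGFBP7, IGF1R and IGF2R and are described below with their ranges.

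PC3 cells were either left untreated in growth medium (2 arrays) or co-cultured for 48 h with primary osteoblasts (OB) from mouse calvaria. The osteoblasts sat on culture inserts and so did not touch the PC3 cells. They came from Sost knockout mice (OB SostKO, 2 arrays) or from wild type mice, and the wild type co-cultures received 100 ng/ml recombinant human DKK1 (OB WT + rhDKK1, 2 arrays) or 100 ng/ml recombinant human SOST (OB WT + rhSOST, 3 arrays). SOST and DKK1 are secreted antagonists of Wnt signaling. The untreated arrays also had no osteoblasts, and no group held wild type osteoblasts without added protein, so in each comparison with untreated PC3 cells the osteoblasts, their genotype and the added protein cannot be told apart. The labels call the arrays biological replicates.

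IGF1 and IGF2 bind the IGF1 receptor (IGF1R), a tyrosine kinase at the cell surface, which passes the signal through the adaptors IRS1 and IRS2 to phosphoinositide 3-kinase and AKT. The IGF2 receptor (IGF2R) takes up IGF2 for degradation and carries lysosomal enzymes. Binding proteins hold IGFs outside the cell and can limit or prolong their action, and bone matrix is a store of IGFs and of IGFBP5. IGFBP7 is a related protein that binds IGFs only weakly.

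Values are log2 signals made with RMA, so a difference of 1 is a doubling, and they are given per probe set because levels of different probe sets cannot be set against each other. Medians of the 9 arrays lay between 5.45 and 5.52. The spiked poly-A control probe sets averaged 10.99 to 11.66 on the untreated arrays and 6.38 to 7.22 on the co-culture arrays. The hybridization control probe sets averaged 9.837 to 10.615 on the untreated and 9.454 to 9.771 on the co-culture arrays. The untreated arrays thus stood apart in sample preparation and hybridization controls as well as in treatment. The 3′ minus 5′ difference of ACTB, a measure of RNA and labeling quality, was 0.50 to 0.88 on the untreated and 0.99 to 2.06 on the co-culture arrays, while the same difference of GAPDH, 0.15 to 0.24 and 0.12 to 0.42, did not separate them. The part of any of these in the differences from untreated PC3 cells was not tested. The 4 epithelial markers KRT8, KRT18, KRT19 and EPCAM averaged 12.7 to 12.8 on every array, and VIM, which PC3 cells are known to make, lay between 12.89 and 13.21. Of 10 osteoblast markers named on the array 4 passed the filter and 0 differed from untreated PC3 cells at an adjusted p under 0.05 in limma, with a list mean of 5.001 to 5.10 on untreated and 4.93 to 5.11 on co-culture arrays, and the probe sets of SOST, DMP1, POSTN, SP7, SPP1 and COL1A2 were below the filter. COL1A1 read 9.31 to 9.77 on the OB WT + rhSOST arrays, above the untreated range of 8.92 to 9.14 (adjusted p = 0.179, limma), and 8.68 to 9.13 on the other co-culture arrays.

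The 100 bases upstream of the start are shown for 4 members. IGFBP5 and IGFBP3 were taken because they had the largest higher and lower values that did not overlap. IGFBP4 was taken because it scattered widely within the co-culture groups. IRS1 was taken because 204686_at and 242979_at, though not 238933_at, were slightly higher on every co-culture array. RefSeq (GRCh38.p14) held a start for 9 of the 10 genes. Each sequence is written 5′ to 3′ on the strand of the gene and ends at the base before the start. Capitals mark TATAAA or a similar AT-rich word, each spelled out after the sequences, and GGGCGG. All were searched on both strands.
IGFBP5, chr2:216695550-216695649, minus strand: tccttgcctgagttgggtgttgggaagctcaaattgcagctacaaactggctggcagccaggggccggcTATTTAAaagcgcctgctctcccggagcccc
IGFBP3, chr7:45921273-45921372, minus strand: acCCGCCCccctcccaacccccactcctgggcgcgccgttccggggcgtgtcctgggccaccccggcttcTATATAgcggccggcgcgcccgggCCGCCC
IGFBP4, chr17:40443350-40443449, plus strand: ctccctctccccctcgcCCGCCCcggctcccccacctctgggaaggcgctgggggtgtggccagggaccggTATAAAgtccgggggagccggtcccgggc
IRS1, chr2:226799821-226799920, minus strand: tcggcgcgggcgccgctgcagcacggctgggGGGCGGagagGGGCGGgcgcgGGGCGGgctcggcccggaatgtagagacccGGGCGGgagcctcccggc
The IGFBP5 sequence held TATTTAA from 31 to 25 bases before the start and no GGGCGG, and TATTTAA was added to the search because it was read there. The IGFBP3 sequence held TATATA from 30 to 25 bases before the start and GGGCGG on the opposite strand at 2 places, where it reads CCGCCC. IGFBP4 held TATAAA from 29 to 24 bases before the start and GGGCGG on the opposite strand. IRS1 held GGGCGG at 4 places and none of the AT-rich words. Of 35116 human promoters cut to the same window, 4.99% held TATAAA, 1.65% TATATA, 1.47% TATTTAA and 31.3% GGGCGG. G and C made up 59 of the 100 bases of IGFBP5, 79 of IGFBP3, 76 of IGFBP4 and 83 of IRS1. The arrays measured RNA and not these promoters, and the matches are descriptions. IGFBP2 and IGFBP5 are next to each other on chromosome 2, and IGFBP3 lies next to IGFBP1 on chromosome 7.

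IGFBP5, a secreted binding protein abundant in bone matrix, had the highest values relative to untreated PC3 cells of all members. Its brightest probe set, 211959_at, read 8.16 and 8.21 on the untreated arrays, 9.53 and 9.82 with OB SostKO, 9.83 and 9.78 with OB WT + rhDKK1, and 9.95, 9.75 and 10.003 with OB WT + rhSOST. Every co-culture array lay above both untreated arrays, while the 3 co-culture groups overlapped each other. The mean was 8.19 ± 0.03 (SD, n = 2) in untreated PC3 cells against 9.67 ± 0.20 (n = 2) with OB SostKO, 9.81 ± 0.04 (n = 2) with OB WT + rhDKK1 and 9.90 ± 0.14 (n = 3) with OB WT + rhSOST, differences of 1.49, 1.62 and 1.71 on the log2 scale. These differences are given as a description without a test, because IGFBP5 was chosen for them. The arrays measured bulk RNA, so more cells making IGFBP5 and more IGFBP5 RNA per cell cannot be told apart.

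The 5 other IGFBP5 probe sets lay in the same direction. Probe set 1555997_s_at read 6.38 and 6.68 on the untreated arrays and between 8.08 and 8.44 on the 7 co-culture arrays. Probe set 203426_s_at read 6.49 and 6.71 against 7.65 to 7.90, 203425_s_at 6.85 and 6.59 against 7.23 to 7.72, and 211958_at 6.72 and 6.60 against 7.05 to 7.89. On 5 of the 6 IGFBP5 probe sets every co-culture array was thus above both untreated arrays, beside 13.1% of the 33970 kept probe sets. This count is a description, because IGFBP5 was chosen for its higher values. The exception, 203424_s_at, read 6.14 and 7.37 on the untreated arrays, 8.51 and 8.42 with OB SostKO, 8.87 and 8.05 with OB WT + rhDKK1, and 8.76, 7.79 and 7.19 with OB WT + rhSOST. Its untreated arrays differed from each other more than on any other IGFBP5 probe set, and OB WT + rhSOST array 3 fell between them. Across the 6 probe sets the fold over untreated PC3 cells ran from 1.53 to 3.27 for OB SostKO, 1.69 to 3.37 for OB WT + rhDKK1 and 1.84 to 3.52 for OB WT + rhSOST, and the sizes differed between probe sets by more than between co-cultures.

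**Figure D1:**
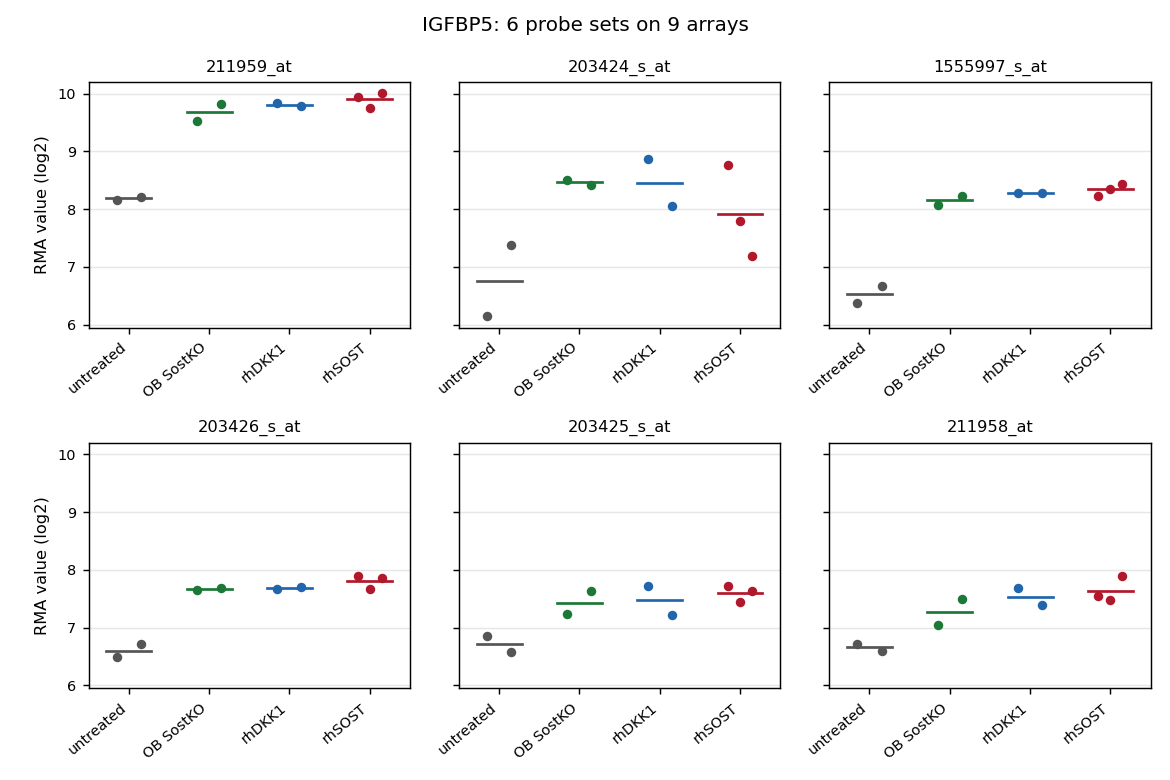
RMA values (log2, vertical axis, shared by all panels) of the 6 IGFBP5 probe sets on each of the 9 arrays by group, with points for arrays and bars for group means. In 5 panels all 7 co-culture points lie above both untreated points, and in the panel of 203424_s_at OB WT + rhSOST array 3 lies at 7.19 between the untreated values of 6.14 and 7.37.

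At an adjusted p under 0.05 (limma, Benjamini-Hochberg over all 33970 probe sets), 3 of the 23 member probe sets were called higher for OB SostKO, 3 for OB WT + rhDKK1 and 5 for OB WT + rhSOST, all of IGFBP5, and nothing is read from these counts because the members were chosen on that contrast. Over all kept probe sets 0.901%, 1.03% and 2.66% were called higher and 0.718%, 0.721% and 1.32% lower in the same 3 comparisons. With OB WT + rhSOST 1 member probe set, of IGFBP3, was called lower. The 17 probe sets of the 9 other genes thus gave 0, 0 and 1 calls. Their median log2 difference was 0.10 for OB SostKO, 0.06 for OB WT + rhDKK1 and 0.05 for OB WT + rhSOST, beside -0.001, -0.003 and 0.01 over all kept probe sets. The 3 comparisons share the 2 untreated arrays and are not independent of each other.

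IGFBP3, the main carrier of IGFs in serum, had lower values in co-culture on both of its probe sets. Probe set 212143_s_at read 9.30 and 8.99 on the untreated arrays, 8.63 and 8.51 with OB SostKO, 8.61 and 8.63 with OB WT + rhDKK1, and 8.39, 8.56 and 8.65 with OB WT + rhSOST. All 7 co-culture arrays lay below both untreated arrays, as on 10.6% of all kept probe sets. The untreated mean was 9.14 ± 0.22 (SD, n = 2). It fell by 0.61 on the log2 scale with OB WT + rhSOST (SE 0.12, adjusted p = 0.0319, limma). With OB SostKO the difference was -0.58 (adjusted p = 0.0687) and with OB WT + rhDKK1 -0.52 (adjusted p = 0.0839), and neither passed the test. The call with OB WT + rhSOST was lost when untreated array 1 was left out (log2 difference -0.45, adjusted p = 0.187) and passed in 4 of 9 fits with 1 array left out. Probe set 210095_s_at, the brighter one, read 10.82 and 10.59 on the untreated arrays and 10.33 to 10.60 on the co-culture arrays. Its ranges overlapped, and its differences of -0.24, -0.29 and -0.25 did not pass the test (adjusted p = 0.342, 0.253 and 0.269).

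IGFBP6, which prefers IGF2 to IGF1, read 11.34 and 11.24 on the untreated arrays, 11.001 and 11.11 with OB SostKO, 11.08 and 11.06 with OB WT + rhDKK1, and 11.17, 11.13 and 11.18 with OB WT + rhSOST (203851_at). All co-culture arrays were below both untreated arrays, as on 10.6% of all kept probe sets. The differences were small, -0.24, -0.22 and -0.13, and did not pass the test (adjusted p = 0.168, 0.189 and 0.345).

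IGFBP4, a binding protein known to hold IGFs away from their receptor, scattered widely (201508_at). It read 10.41 and 10.48 on the untreated arrays, 9.99 and 10.74 with OB SostKO, 11.05 and 10.13 with OB WT + rhDKK1, and 10.90, 10.31 and 11.04 with OB WT + rhSOST. The lowest and the highest array both were co-cultures, and the SD of 0.39 to 0.65 within the co-culture groups exceeded every difference from untreated PC3 cells (-0.08, 0.15 and 0.31, adjusted p = 0.929, 0.852 and 0.654). Within groups its values moved with the median of the array. In all 6 pairs of arrays of a group, the array with the higher median had the lower IGFBP4 value. This was so for 5.17% of the 33970 kept probe sets, among them the brightest IGFBP5 probe set, 211959_at. The part of this in the scatter of either probe set was not tested.

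**Figure D2:**
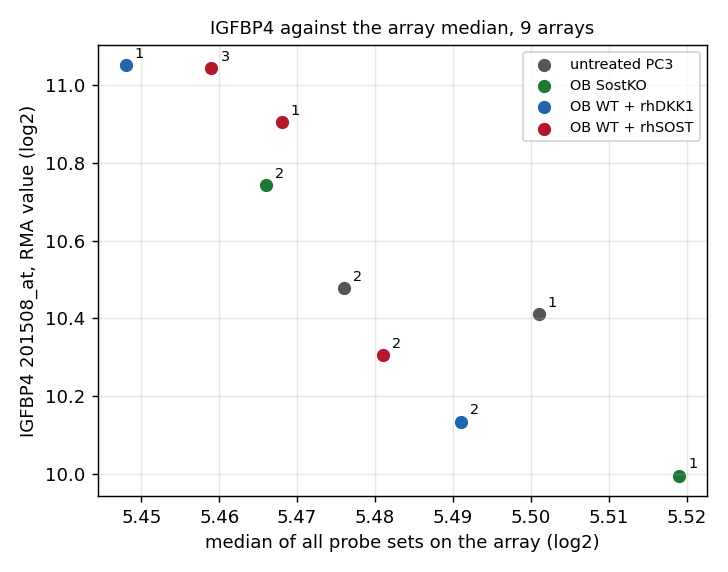
IGFBP4 (201508_at, RMA value on the log2 scale, vertical axis) against the median of all probe sets on the same array (log2, horizontal axis) for the 9 arrays, colored by group and numbered by replicate. The array with the highest median, OB SostKO array 1 at 5.52, has the lowest IGFBP4 value of 9.99, and the array with the lowest median, OB WT + rhDKK1 array 1 at 5.45, the highest of 11.05.

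IGFBP2, a binding protein often made by tumor cells, read 5.54 and 5.53 on the untreated arrays and 5.42 to 5.86 in co-culture (202718_at). IGFBP7 read 6.60 and 6.52 on the untreated arrays and 6.39 to 6.85 in co-culture on 201162_at. For both genes the co-culture arrays spanned the untreated values, and the differences from untreated PC3 cells ran from 0.04 to 0.12 on the log2 scale. The other IGFBP7 probe sets, 213910_at at 2.78 to 3.11 and 201163_s_at at 2.31 to 2.64, were below the filter on every array.

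**Figure D3:**
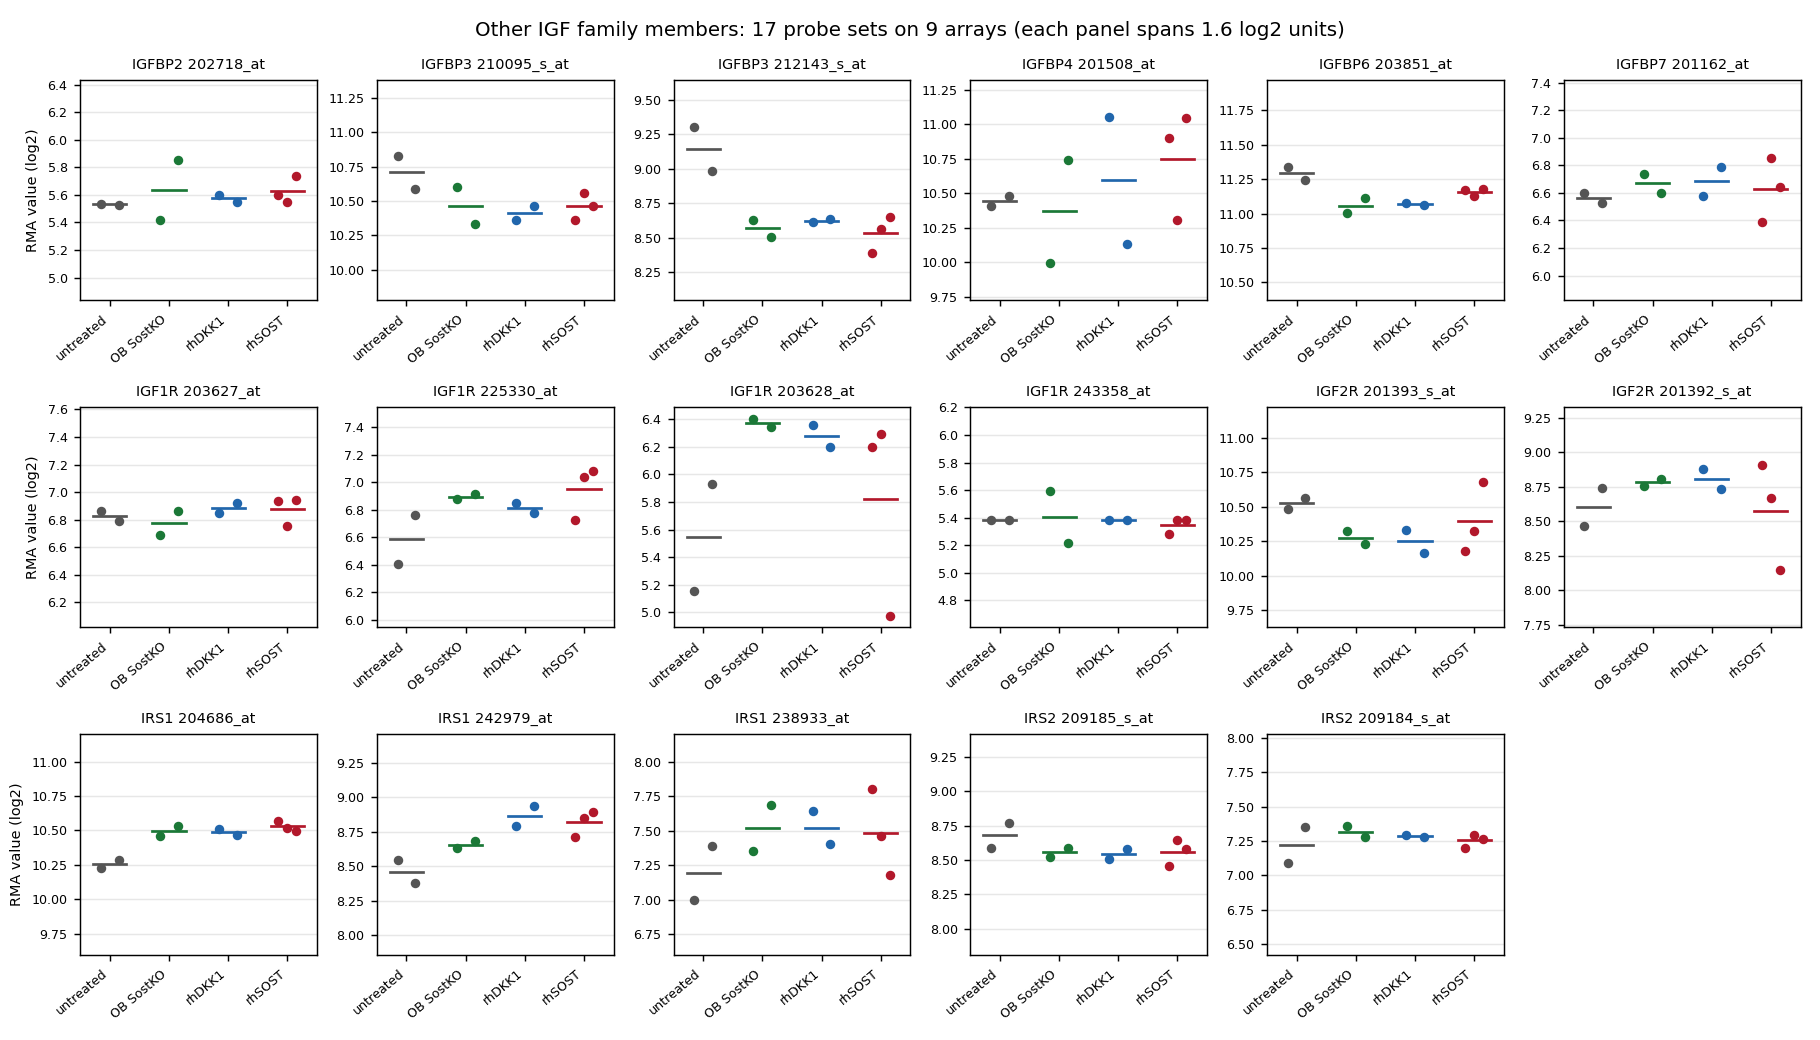
RMA values (log2) of the 17 kept probe sets of the other 9 genes on each of the 9 arrays by group, with points for arrays and bars for group means, each panel spanning 1.6 log2 units. IGFBP3 212143_s_at and IGFBP6 lie lower on all 7 co-culture arrays, and IRS1 204686_at and 242979_at lie higher on all 7. Of all kept probe sets 10.6% lie lower and 13.1% higher on all 7. IGFBP4 spreads from 9.99 to 11.05 within the co-cultures.

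IGF1R, the receptor that signals, did not differ from untreated PC3 cells by the test on any of its 4 kept probe sets. Its brightest, 203627_at, read 6.86 and 6.79 on the untreated arrays and 6.69 to 6.95 on the co-culture arrays. Probe set 225330_at read 6.41 and 6.76 against 6.73 to 7.08, and 243358_at 5.39 on both untreated arrays against 5.22 to 5.59. Probe set 203628_at read 5.16 and 5.93 on the untreated arrays, 6.41 and 6.34 with OB SostKO, 6.36 and 6.20 with OB WT + rhDKK1, and 6.20, 6.29 and 4.97 with OB WT + rhSOST. On this probe set 6 of 7 co-culture arrays were above both untreated arrays and OB WT + rhSOST array 3 was below both. Its differences of 0.83, 0.73 and 0.28 had adjusted p of 0.336, 0.387 and 0.743 (limma), and the remaining probe set, 208441_at, was below the filter at 3.83 to 4.39.

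IGF2R, the receptor that clears IGF2, read 10.48 and 10.57 on the untreated arrays, 10.32 and 10.23 with OB SostKO, 10.33 and 10.17 with OB WT + rhDKK1, and 10.18, 10.32 and 10.68 with OB WT + rhSOST (201393_s_at). On this probe set OB WT + rhSOST array 3 was the highest of all arrays, while the 6 other co-culture arrays were below both untreated arrays. Probe set 201392_s_at read 8.46 and 8.74 on the untreated arrays and 8.15 to 8.91 in co-culture, and there the same array was the lowest. No IGF2R difference passed the test (lowest adjusted p = 0.371), and the third probe set, 1569052_at, was below the filter at 3.69 to 4.16.

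IRS1, the adaptor that couples the receptor to phosphoinositide 3-kinase, was slightly higher in co-culture on all 3 probe sets. Probe set 204686_at read 10.23 and 10.28 on the untreated arrays, 10.46 and 10.53 with OB SostKO, 10.51 and 10.47 with OB WT + rhDKK1, and 10.57, 10.52 and 10.49 with OB WT + rhSOST. Every co-culture array was above both untreated arrays, as on 13.1% of all kept probe sets. The differences of 0.24, 0.23 and 0.27 did not pass the test (adjusted p = 0.149, 0.154 and 0.0707). With the brightest probe set standing for each gene, fewer features were tested and the difference with OB WT + rhSOST was called (adjusted p = 0.0439). Probe set 242979_at read 8.54 and 8.38 against 8.63 to 8.94, with differences of 0.19, 0.40 and 0.36 (adjusted p = 0.34, 0.0865 and 0.0728). Probe set 238933_at read 7.001 and 7.39 against 7.18 to 7.80, and its ranges overlapped.

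IRS2, the related adaptor, read 8.59 and 8.77 on the untreated arrays and 8.46 to 8.65 in co-culture on 209185_s_at. Its other probe set, 209184_s_at, read 7.09 and 7.35 against 7.20 to 7.36. Its differences lay between -0.13 and 0.10, with opposite signs on the 2 probe sets, and none passed the test. Among the 17 probe sets of genes other than IGFBP5, 2 were above both untreated arrays on every co-culture array and 2 were below, beside 13.1% and 10.6% of all kept probe sets.

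**Figure D4:**
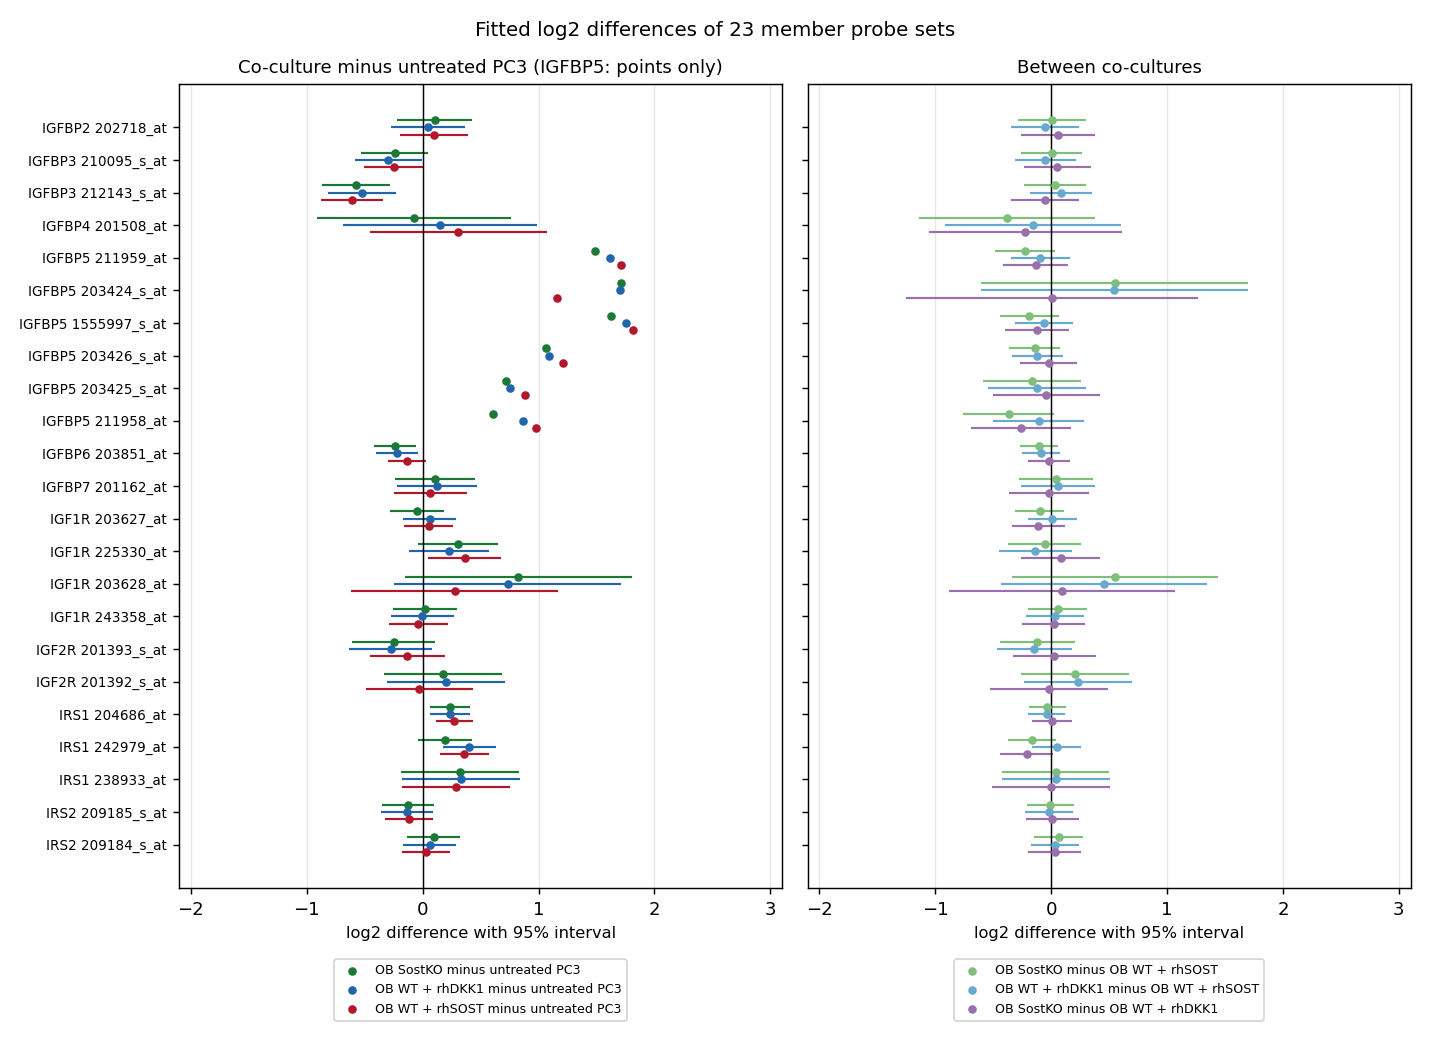
Fitted log2 differences of the 23 kept member probe sets (rows), with each co-culture minus untreated PC3 on the left and pairs of co-cultures on the right; points are estimates and lines 95% intervals from limma, left out for IGFBP5 on the left because it was chosen on that contrast. IGFBP5 sits between 0.61 and 1.81 on the left, and every interval on the right includes 0.

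Between the co-cultures no member probe set was called in any of the 3 comparisons. OB SostKO differed from the other co-cultures in both osteoblast genotype and added protein, which cannot be told apart there. OB WT + rhDKK1 and OB WT + rhSOST differed in the added protein. The smallest adjusted p of a member was 0.843 for OB SostKO against OB WT + rhSOST and 1 for the other comparisons in limma, and 0 of the 23 had an unadjusted p under 0.05 in any of the 3. Over all probe sets 0% were called in each comparison, with 1165, 791 and 290 of 33970 at an unadjusted p under 0.05. IGFBP5 211959_at was lower by 0.23 with OB SostKO than with OB WT + rhSOST, with a 95% interval of -0.48 to 0.03. With OB WT + rhDKK1 it was lower than with OB WT + rhSOST by 0.09, with an interval of -0.35 to 0.16. The member with the smallest p was IGFBP5 211958_at for OB SostKO against OB WT + rhSOST (difference -0.37, interval -0.76 to 0.02), IGFBP5 203426_s_at for OB WT + rhDKK1 against OB WT + rhSOST (-0.12, -0.34 to 0.10) and IRS1 242979_at for OB SostKO against OB WT + rhDKK1 (-0.21, -0.44 to 0.02). IGFBP3 212143_s_at differed between OB SostKO and OB WT + rhSOST by 0.03 with an interval of -0.23 to 0.30. For IGFBP4 and for IGFBP5 203424_s_at the intervals were wide, -1.14 to 0.38 and -0.60 to 1.70 in the same comparison.

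The pattern of the brightest IGFBP5 probe set, 211959_at, over the 9 arrays was shared most closely by LINC00261, a long non-coding RNA. This was among 14853 genes outside the set, and the other IGFBP5 probe sets were not used. Likeness was the root mean square difference of log2 values taken relative to the untreated mean, and it was 0.25 for LINC00261. The next were SAMD12 at 0.27, TENT5C, a poly(A) polymerase, at 0.29, GABBR2, a subunit of the GABA-B receptor, at 0.37, and CSGALNACT1, an enzyme of chondroitin sulfate synthesis, at 0.42. Relative to the untreated mean IGFBP5 211959_at lay between 1.34 and 1.82 on the co-culture arrays and LINC00261 between 1.25 and 1.603. This ranking describes 9 arrays in 4 groups and carries no test.

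The rest of the pathway was read from lists by each gene's brightest kept probe set. Over all 14863 genes 1.08% were called higher and 0.794% lower with OB SostKO, 1.21% and 0.841% with OB WT + rhDKK1, and 3.01% and 1.35% with OB WT + rhSOST. The median log2 difference of all genes was -0.01, -0.01 and 0.02.

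Of 13 ligands, receptors and binding partners 9 were measured, and CCN2 was the one called. CCN2, a matrix protein with an IGF binding domain, read 10.32 and 10.33 on the untreated arrays, 9.68 and 9.73 with OB SostKO, 9.73 and 9.67 with OB WT + rhDKK1, and 9.68, 9.76 and 9.58 with OB WT + rhSOST. It fell by 0.62, 0.63 and 0.65 on the log2 scale (adjusted p = 0.0202, 0.0189 and 0.00771). Every co-culture array was below both untreated arrays, as on 10.6% of all kept probe sets. Its relative CCN1 read 12.85 and 12.86 against 12.47 to 12.61, differences of -0.29, -0.28 and -0.31 that did not pass (adjusted p = 0.116, 0.116 and 0.0556). The insulin receptor INSR, which can pair with IGF1R, read 8.62 and 8.58 on the untreated arrays and 8.75 to 9.20 in co-culture (differences 0.54, 0.38 and 0.36, adjusted p = 0.0699, 0.141 and 0.111). IGF1 itself read 5.94 and 6.03 against 5.75 to 6.17, so the ranges overlapped. IGFBP1, IGFBPL1 and CCN4 were below the filter, and IGF2 was covered only by probe sets with several symbols. The list's median difference was -0.04, -0.04 and -0.02.

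Proteases that cut binding proteins and inhibitors of such proteases made up a list of 10 genes, of which all were measured and none was called in any comparison (smallest adjusted p = 0.242, 0.172 and 0.158). STC1, an inhibitor of the IGFBP4 protease PAPPA, read 7.91 and 8.01 on the untreated arrays and 8.05 to 8.32 in co-culture. HTRA1, a protease that cuts IGFBP5, read 9.39 and 9.28 against 9.45 to 9.59. Both were above the untreated arrays throughout, with differences of 0.24, 0.30 and 0.17 for STC1 and 0.13, 0.15 and 0.21 for HTRA1. STC2, also on this list, went the other way, from 10.11 and 10.02 to values of 9.72 to 9.98. Its differences were -0.22, -0.23 and -0.22. Of all kept probe sets 13.1% lay above both untreated arrays on every co-culture array and 10.6% below. The list's median difference was -0.07, -0.01 and 0.002.

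Of 30 adaptors and kinases downstream of IGF1R 25 were measured, with 1 called higher with OB SostKO, 1 with OB WT + rhDKK1, 3 with OB WT + rhSOST and none lower. PIK3R1, a regulatory subunit of phosphoinositide 3-kinase, read 6.67 and 6.81 on the untreated arrays and 7.14 to 7.41 in co-culture, with differences of 0.54 (adjusted p = 0.049), 0.44 (adjusted p = 0.0767) and 0.43 (adjusted p = 0.0483). GRB14, an adaptor known to restrain insulin receptor signaling, read 5.03 and 5.41 against 5.69 to 6.03, with differences of 0.53, 0.72 and 0.60 (adjusted p = 0.0913, 0.0432 and 0.038). PIK3R3, another regulatory subunit, read 8.53 and 8.61 against 8.81 to 9.11 and was called with OB WT + rhSOST (0.45, adjusted p = 0.025). The called genes of this list therefore include an adaptor whose known role is to dampen signaling. The list's median difference was 0.09, 0.10 and 0.14.

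Of 14 brakes on IGF1R signaling 13 were measured and none was called (smallest adjusted p = 0.141, 0.141 and 0.0691), with a median difference of 0.02, 0.07 and 0.06. FOXO factors are kept out of the nucleus when IGF signaling through AKT is active, and 12 of 13 FOXO factors and known targets were measured. With OB SostKO 1 of them was called higher and 1 lower, with OB WT + rhDKK1 2 and 1, and with OB WT + rhSOST 4 and 1. BCL6, a transcriptional repressor, read 7.87 and 8.01 on the untreated arrays and 8.75 to 9.0 in co-culture, with differences of 0.94, 0.88 and 0.95 (adjusted p = 0.0111, 0.0121 and 0.00456). GADD45A, a stress and DNA damage gene, went the other way, from 12.38 and 12.52 to values of 11.50 to 11.75, and fell by 0.78, 0.78 and 0.91 (adjusted p = 0.012, 0.0117 and 0.00309). TXNIP, which limits glucose uptake, read 11.03 and 10.95 against 11.37 to 11.54 (differences 0.41, 0.46 and 0.46, adjusted p = 0.0596, 0.0417 and 0.0209). FOXO1 read 6.80 and 6.85 against 7.06 to 7.42 and was called with OB WT + rhSOST (0.49, adjusted p = 0.0265), as was CCNG2, a cyclin that slows the cell cycle (0.71, adjusted p = 0.0322), which is named here after its values were seen. The list thus moved in both directions, with a median difference of 0.14, 0.04 and 0.22.

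**Figure D5:**
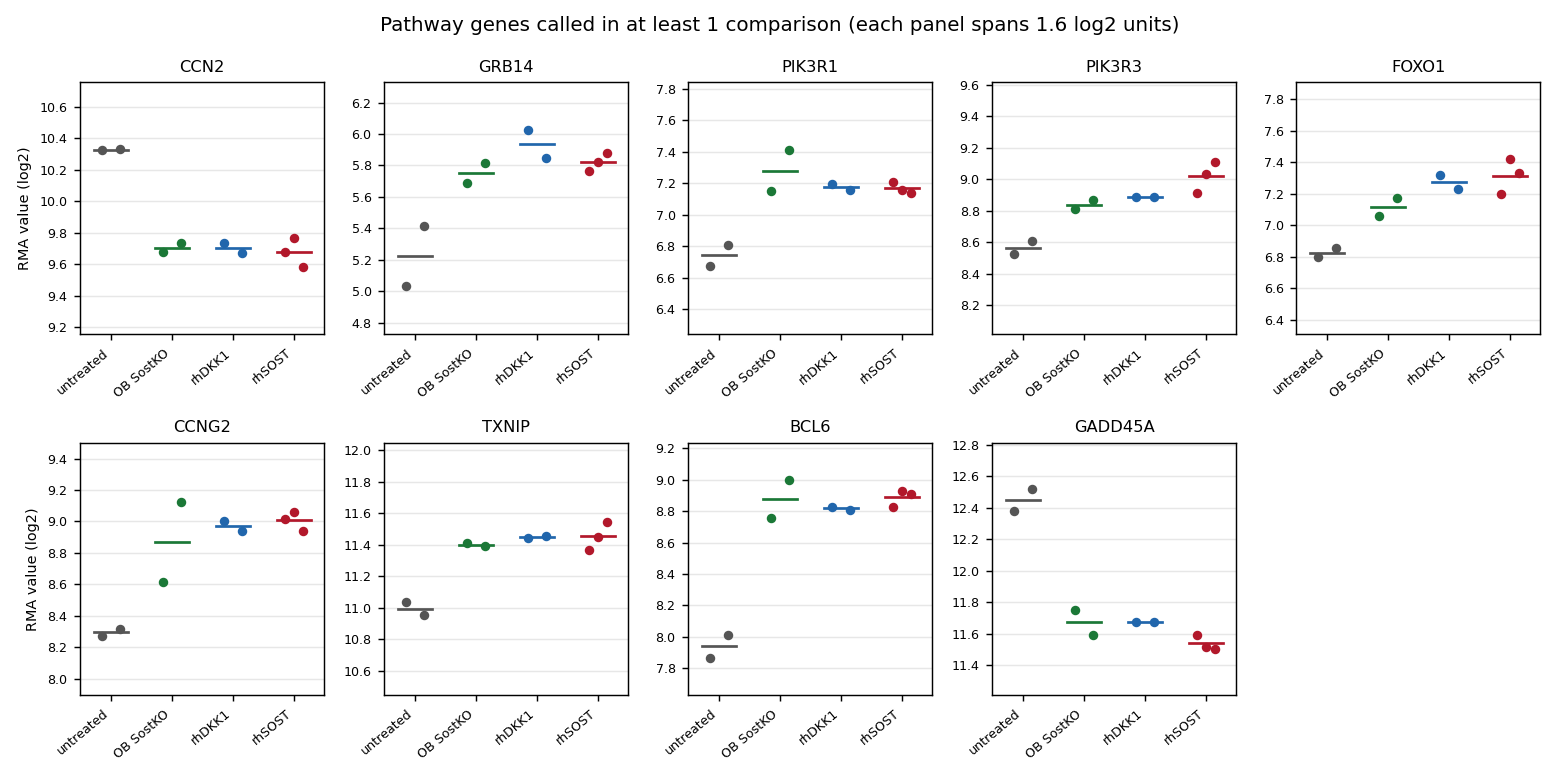
RMA values (log2) of the 9 pathway genes called in at least 1 comparison with untreated PC3 cells, on each of the 9 arrays by group, with points for arrays and bars for group means, each panel spanning 1.6 log2 units. CCN2 and GADD45A lie lower and the 7 other genes higher on all 7 co-culture arrays than on both untreated arrays. The genes were chosen by calls against the same untreated arrays, so this separation is a description. Of all kept probe sets 10.6% lie lower and 13.1% higher in this way.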

How the data were processed

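Each of the 9 samples was measured on 1 Affymetrix U133 Plus 2.0 array. The deposited log2 values were produced by the authors with RMA, a name taken from the submitters' processing notes. The software, its version and the grouping of arrays in RMA are not given in the sources used here. RMA sets all arrays to like distributions, so a shift shared by most genes would not be seen. Precision is limited by how few arrays there are.

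The analysis used limma 3.58.1 in R 4.3.3, and sequences were read with Python 3.11.15. The 62 control probe sets were left out, and a probe set was kept where at least 2 arrays had it at or above their own 40th percentile. Symbols came from the platform's annotation, updated to RefSeq names; 28244 kept probe sets carry 1 symbol, 1307 several and 4419 none, and those with several were not used for genes. A model with a mean per group was fitted to all 9 arrays with lmFit and eBayes, and p-values were adjusted by Benjamini-Hochberg over the 33970 kept probe sets. A probe set was called at an adjusted p under 0.05. Intervals are 95% intervals from the fit, on a median of 8 degrees of freedom.

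All member probe sets are described, and, per list, up to 4 genes called against untreated PC3 cells. CCN1, INSR, IGF1, STC1, STC2, HTRA1 and CCNG2 were added after their values were seen. Of the direct comparisons the member with the smallest p is named, and for IGFBP5 the 5 most like genes. The members and lists were chosen with earlier results of these data known. The methods name ANOVA with Tukey's comparisons and a paired test, which were run as alternatives. The fit was tested on simulated data.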

Additional observations from a re-analysis of the deposited data

How the results depend on the processing

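Member probe sets called against untreated PC3 cells numbered 3 for OB SostKO, 3 for OB WT + rhDKK1 and 6 for OB WT + rhSOST. Of these 3, 3 and 5 were of IGFBP5, and the members were chosen on its contrast. These counts and those under other settings are therefore descriptions and carry no evidence. With the brightest probe set of each gene, over 10 genes, the counts were 1, 1 and 2, and with the mean of a gene's probe sets 1, 1 and 1, since fewer features enter. With only the 2 groups compared they were 2, 0 and 3, with array weights 3, 5 and 8, and with a fold of at least 2 added after the data were seen 3, 3 and 3. Tukey's comparisons gave 6, 8 and 8 unadjusted, where 2658, 2780 and 3317 of all probe sets passed, and 0, 0 and 0 after Benjamini-Hochberg, where 14, 1 and 20 passed. The methods' paired test gave 3, 1 and 6 unadjusted (2721, 2572 and 2666 of all) and 0, 0 and 0 adjusted (0, 1 and 2 of all). Unadjusted, the paired test also called 2 IRS1 probe sets between OB WT + rhDKK1 and OB WT + rhSOST, beside 1511 of all 33970; every other setting gave 0 between co-cultures. With the replicate block the counts were 3, 3 and 3. The correlation of same-numbered deviations from the group means ran from -0.539 to 0.426. In a group of 2 arrays these deviations mirror each other, so the values cannot settle whether arrays were paired. Leaving out 1 array gave 2 to 4, 2 to 4 and 3 to 6 calls. Without OB WT + rhSOST array 3 they were 4, 4 and 5. Calls over all probe sets were 550, 595 and 1355, against 60, 0 and 148 with only 2 groups, 259, 1486 and 2462 with array weights, 592, 569 and 696 with the replicate block, 365, 437 and 1066 with no filter, 81, 91 and 103 with the added fold, and 1475, 1363 and 1661 without OB WT + rhSOST array 3. Over 14863 genes the counts were 553, 633 and 1036 with the brightest probe set and 410, 457 and 727 with the mean. Without OB SostKO array 1 the first was 33, without OB WT + rhDKK1 array 1 the second was 27, and without untreated array 1 the third was 96. IGFBP3 212143_s_at with OB WT + rhSOST was not called with the replicate block (adjusted p = 0.0601), with only 2 groups (0.105) or when its probe sets were averaged (0.0545). No named value changed sign where it had been called. On those probe sets every co-culture array lay on the same side of both untreated arrays. Leaving out or weighting arrays could therefore not change the sign. The causes were not tested.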

Other observations

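The scatter of IGFBP4 within groups moved with the median of the array. This was noticed in the values of IGFBP4 and is therefore a description with no test. Over the 9 arrays IGFBP4 was lower where the median was higher (Pearson's r = -0.904, Spearman's rho = -0.933), and r was -0.827 without the 2 arrays farthest from the middle, OB SostKO array 1 with a median of 5.52 and OB WT + rhDKK1 array 1 with a median of 5.45. Of the 33970 kept probe sets 152 (0.447%) had an r as far from 0 or farther, so the relation is not particular to IGFBP4. Among the 23 kept member probe sets the next were IGFBP3 210095_s_at at r = 0.699 and IGFBP2 at r = -0.677. IGFBP5 211959_at had an r of -0.39 and a rho of -0.767. Like IGFBP4 it was lower on the array with the higher median in all 6 pairs within groups. The array medians spanned 5.45 to 5.52, and what sets them was not tested.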
